A study of Danio rerio with 12 samples.

Results

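Vascular endothelial genes were examined in adult zebrafish testis under follicle-stimulating hormone (Fsh). The set was named by 10 gene symbols. Of these, 6 matched an Ensembl gene ID among the 33737 IDs counted in every library, namely the fenestration genes plvapa and plvapb and the general endothelial genes KDR, flt1, cdh5 and TIE1. The symbol fli1a had no entry of its own in the table of symbols. RefSeq (GRCz12tu) lists it as a synonym of fli1, so FLI1 (ENSDARG00000054632) is described beside the 6 as a gene outside the set. The IDs given for kdrl, EGFL7 and clec14a were not among the IDs counted, and these genes were not analysed here. RefSeq also lists kdr as an older synonym of kdrl, so the identity of KDR (ENSDARG00000017321) rests on the table of symbols.

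All 12 libraries came from wild-type adult testis tissue kept for 48 h with trilostane, which blocks the synthesis of steroid hormones. Trilostane alone was the control (6 libraries), and the Fsh group had trilostane and Fsh (6 libraries). Whole tissue was sequenced, so germ cells, Sertoli cells, Leydig cells, vessels and blood cells share each library. The dose and source of Fsh, and whether equally numbered libraries come from one fish, could not be taken from the labels. Library totals ran from 4695095 to 11497588 counts. The presence of germ cells was checked with 8 tested germ cell markers, which summed to between 2870 and 4670 CPM in every library.

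Endothelial cells line the blood vessels, which in the testis run in the interstitial tissue between the tubules, together with the Leydig cells. Vascular endothelial growth factor (Vegf) acts on them through the receptor tyrosine kinases Kdr and Flt1, VE-cadherin (cdh5) holds their junctions together, and Tie1 works with the angiopoietin receptor Tek. Plvap, the plasmalemma vesicle-associated protein, forms the diaphragms of fenestrae and caveolae in permeable capillaries such as those of endocrine glands. Zebrafish carry a pair of plvap genes. The comparison asks whether they move apart from the general endothelial genes with Fsh.

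With Fsh, plvapa rose 2.71-fold while KDR, flt1, cdh5 and TIE1 had log2 fold changes between −0.12 and 0.30 and did not pass the test. A direct test of plvapa relative to these general genes, described below, did not pass in its main setting (edgeR, adjusted p = 0.0642). The second fenestration gene, plvapb, was at 1.68 times its control level and did not pass over all genes. Levels are CPM, the counts of a gene relative to its library's size, scaled by the trimmed mean of M-values (TMM). Calls were made with edgeR's quasi-likelihood test at an adjusted p under 0.05, with 19317 genes tested. Of the 6 members, 1 was called, against 1.63% of all tested genes and 0.865% called higher. All 6 members passed the filter on low counts.

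In control libraries 1 to 6, plvapa (ENSDARG00000076972) stood at 4.91, 6.21, 3.58, 3.17, 7.34 and 2.27 CPM. In Fsh libraries 1 to 6 it stood at 6.38, 17.2, 13.0, 13.5, 14.4 and 10.6 CPM. Each Fsh library was above the mean of the controls, and 5 of 6 were above every control. Fsh library 1 fell within the control range, so the groups overlap. The means were 4.58 ± 1.93 and 12.5 ± 3.69 CPM (SD, n = 6 each), with a log2 fold change of 1.44 ± 0.29 (SE; edgeR, adjusted p = 0.0297). The gene is a low one, with 225 reads in all controls together and 665 with Fsh.

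The paralogue plvapb (ENSDARG00000045003) stood at 9.83, 16.4, 11.3, 8.68, 11.7 and 10.9 CPM in control libraries 1 to 6. With Fsh it stood at 16.0, 25.8, 18.2, 10.2, 28.4 and 18.0 CPM. Here 5 of 6 Fsh libraries lay above the control mean, and libraries 1 and 4 fell within the control range. The log2 fold change was 0.75 ± 0.23 (95% interval 0.26 to 1.24; edgeR, unadjusted p = 0.00567, adjusted p = 0.114). An unadjusted p under 0.05 was reached by 17.4% of all tested genes. DESeq2 called both plvap genes (adjusted p = 0.000261 for plvapa and 0.0417 for plvapb), where it called 5.49% of all genes.

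The call of plvapa was lost without control library 1, 3 or 4 or Fsh library 2, 3 or 4 (adjusted p from 0.058 to 0.0804), at log2 fold changes between 1.32 and 1.45. With the mean level of 14 leukocyte genes as a covariate, plvapa had a log2 fold change of 1.64 ± 0.37 (adjusted p = 0.0577) and plvapb of 1.13 ± 0.24 (adjusted p = 0.0465). The share of all genes called in that fit was not counted.

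**Figure D1:**
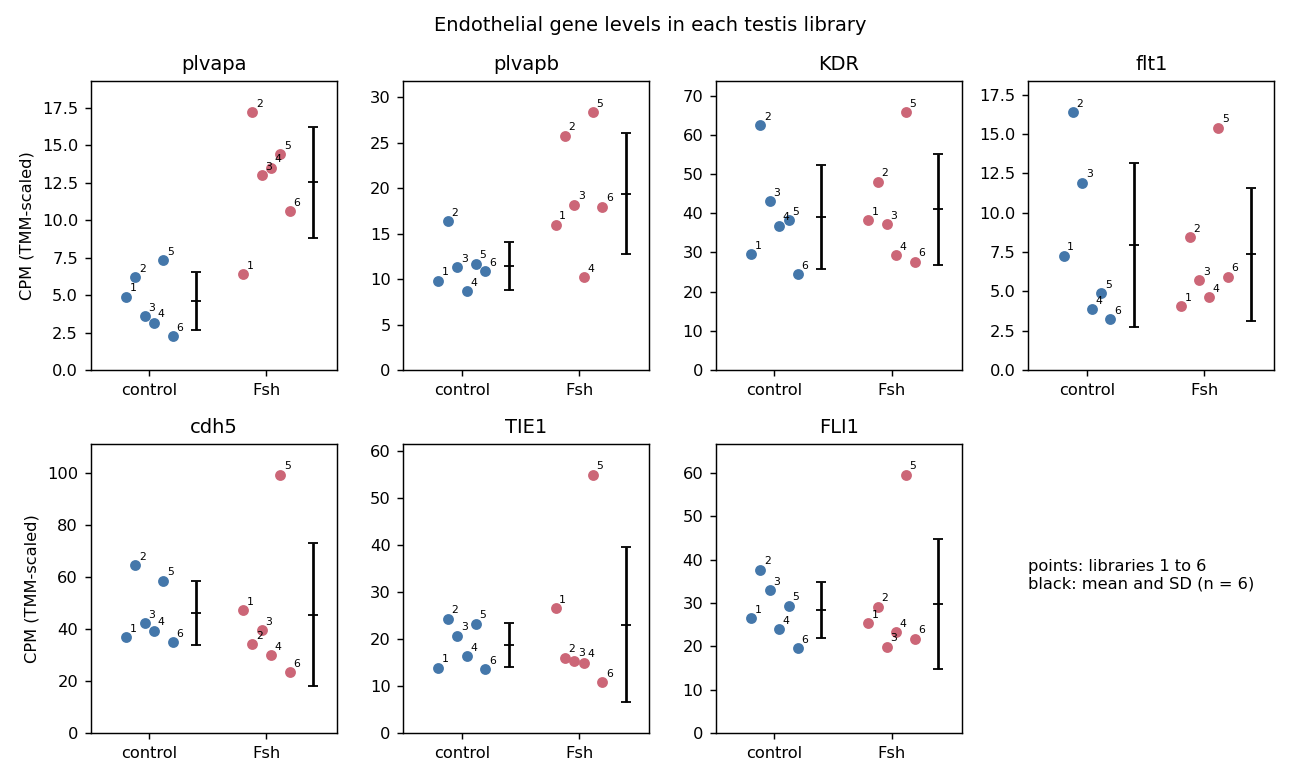
Level of each member and of FLI1 (CPM, TMM-scaled; axes start at 0) in the 6 control and 6 Fsh libraries, with the library number beside each point and the mean and SD in black. For plvapa 5 of the 6 Fsh libraries lie above every control, while for cdh5, TIE1 and FLI1 Fsh library 5 stands above the other 11 libraries.

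The Vegf receptor genes KDR and flt1 did not pass, and kdrl was not among the genes counted. KDR, which encodes a signalling receptor for Vegf, averaged 39.1 ± 13.2 CPM in controls and 41.0 ± 14.1 CPM with Fsh. In controls 1 to 6 it stood at 29.5, 62.5, 43.0, 36.8, 38.3 and 24.5 CPM, and in Fsh libraries 1 to 6 at 38.3, 48.0, 37.2, 29.3, 65.8 and 27.7 CPM. The groups overlap over nearly the whole range, with control library 2 and Fsh library 5 the highest. The log2 fold change was 0.07 (95% interval −0.45 to 0.59; edgeR, adjusted p = 0.922).

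The gene flt1 encodes a second Vegf receptor, whose soluble form binds Vegf and limits its action. Its level lay between 3.23 and 16.4 CPM in controls and between 4.05 and 15.4 CPM with Fsh. Again control library 2 and Fsh library 5 were the highest of their groups. The log2 fold change was −0.12, and its wide 95% interval (−1.04 to 0.80; edgeR, adjusted p = 0.92) does not exclude a change of the size seen for plvapb.

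The junction gene cdh5 stood at 36.7, 64.5, 42.2, 39.3, 58.6 and 34.9 CPM in controls 1 to 6. With Fsh it stood at 47.1, 34.1, 39.4, 29.9, 99.3 and 23.4 CPM. Fsh library 5 was the highest of all 12 libraries, and 3 Fsh libraries lay below every control. The log2 fold change was −0.02 (95% interval −0.67 to 0.64; edgeR, adjusted p = 0.985), and −0.41 without Fsh library 5, which did not pass either.

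TIE1 averaged 18.7 ± 4.70 CPM in controls and 23.0 ± 16.4 CPM with Fsh. Controls lay between 13.6 and 24.3 CPM. Of the Fsh libraries 5 lay between 10.8 and 26.5 CPM, while Fsh library 5 had 54.9 CPM. The log2 fold change was 0.30 (95% interval −0.45 to 1.05; edgeR, adjusted p = 0.702) with that library and −0.16 without it. FLI1, an ETS transcription factor of endothelial and blood cells, was also highest in control library 2 and Fsh library 5. Its controls lay between 19.5 and 37.7 CPM and 5 Fsh libraries between 19.9 and 29.1 CPM, with 59.6 CPM in Fsh library 5 (log2 fold change 0.07, 95% interval −0.48 to 0.63, adjusted p = 0.918). In tissue sequenced whole, a change in the number of endothelial cells and a change in RNA per endothelial cell cannot be told apart. This holds for plvapa as for the general genes.

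The difference itself, fenestration against general endothelial genes, was tested by scaling each library to the geometric mean of KDR, flt1, cdh5 and TIE1 in place of TMM and refitting all genes. On this scale plvapa was 2.93-fold higher with Fsh relative to the general genes, a log2 difference of 1.55 ± 0.38, and did not pass (edgeR, adjusted p = 0.0642). For plvapb the difference was 0.74 ± 0.32 (unadjusted p = 0.0282, adjusted p = 0.682), and for FLI1, which was not used in the scaling, it was 0.00 ± 0.28. This scaling called 0.383% of all tested genes, with 0.176% called higher, and 5.89% had an unadjusted p under 0.05.

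Library by library, with the control mean set to 0, the log2 ratio of plvapa to the general genes was 0.44, −0.20, −0.52, −0.13, 0.70 and −0.28 in controls 1 to 6. It was 0.60, 1.97, 1.77, 2.09, 0.56 and 1.87 in Fsh libraries 1 to 6. In Fsh libraries 2, 3, 4 and 6 the ratio stood above every control, and in Fsh libraries 1 and 5 it lay within the control range. Those latter libraries differ in kind. Library 1 had the lowest plvapa level of its group, while library 5 had 14.4 CPM of plvapa together with the highest KDR, flt1, cdh5 and TIE1 levels of its group. The ratio of plvapb ran from −0.28 to 0.56 in controls and from 0.15 to 1.25 with Fsh, with 3 Fsh libraries above every control. The ratio of FLI1 ran from −0.30 to 0.16 and from −0.31 to 0.22.

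The result for the plvapa ratio turned on the setting. It passed with Fsh library 1 or 5 left out (adjusted p = 0.0362 and 0.0116), with scaling to cdh5 alone (0.0241) or to summed CPM (0.0469), and with the general endothelial level as a covariate under TMM (1.47 ± 0.28, adjusted p = 0.0147). In the scaling to the general genes it also passed with the replicate number as a block (1.51 ± 0.38, edgeR, adjusted p = 0.0166). That difference was no larger relative to its SE than the 1.55 ± 0.38 of the main setting, which did not pass. How many of all genes this block called in that scaling was not counted. With the leukocyte covariate in the same scaling, chosen after seeing the data, it passed at a smaller difference of 0.87 ± 0.33 (adjusted p = 0.0342). The share of all genes called in that fit was not counted, so this pass has no background to be read against. Relative to its SE, the difference was smaller than in the main setting (1.55 ± 0.38, edgeR, adjusted p = 0.0642). The lower adjusted p therefore came from more small p-values over all genes, not from a clearer difference of plvapa. The plvapa ratio did not pass in limma-voom (adjusted p = 0.14) or without any other single library (adjusted p up to 0.205). With that endothelial covariate plvapb passed as well (0.74 ± 0.17, adjusted p = 0.0325).

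**Figure D2:**
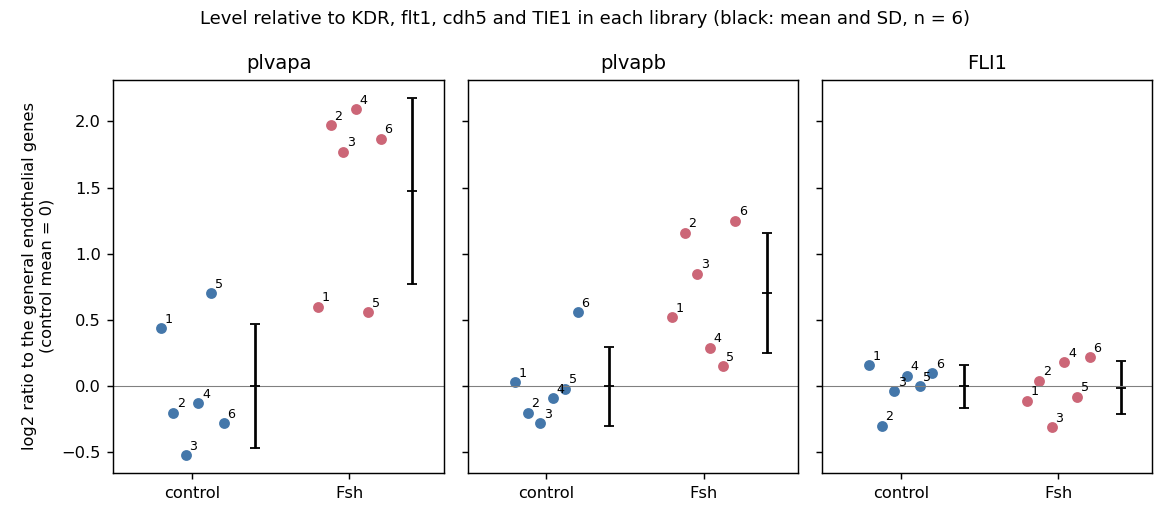
Log2 ratio of plvapa, plvapb and FLI1 to the geometric mean of KDR, flt1, cdh5 and TIE1 in each library, with the control mean at 0, library numbers beside the points and mean and SD in black. The plvapa ratio averages 1.48 with Fsh, with libraries 1 and 5 at 0.60 and 0.56, whereas the FLI1 ratio averages −0.01.

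A wider list of endothelial genes held 36 that were tested, FLI1 among them. Of these 1 fell, none rose and 35 did not pass, against 0.766% of all genes called lower. Their median log2 fold change was 0.09, beside 0.00173 for all tested genes, and 22 of 36 were above 0, where 50.3% of all genes were. Without Fsh library 5 the median was −0.15, and of the 40 endothelial genes other than the plvap pair 11 were above 0, against 24 with that library. Together with the members this gave 42 endothelial genes, among which plvapa and plvapb had the highest and the second highest log2 fold change. They were followed by esamb, a cell adhesion gene, at 0.62 and mmrn2b, a multimerin of the vessel matrix, at 0.60. In limma-voom, and without Fsh library 5, plvapa remained first and plvapb came after esamb, which was the 1 other gene above it. Lymphatic and venous genes, described below, were not among the 42. In the main fit stab2 of that list was above plvapb, at 1.19, and it was at 0.25 without Fsh library 5.

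The endothelial gene that fell was a copy of claudin 5, a tight junction protein of endothelium with low permeability. CLDN5 (ENSDARG00000043716) stood at 39.5, 54.2, 43.2, 29.7, 34.3 and 27.4 CPM in controls 1 to 6 and at 21.0, 14.1, 21.5, 13.7, 27.5 and 8.15 CPM in Fsh libraries 1 to 6. Every Fsh library lay below the control mean, and 5 of 6 lay below every control. Fsh library 5 overlapped the lowest control. The log2 fold change was −1.10 ± 0.26 (edgeR, adjusted p = 0.0491). DESeq2 (adjusted p = 0.00221) and limma-voom (adjusted p = 0.0412) also called this copy, where they called 5.49% and 1.87% of all genes. In edgeR, leaving out any 1 of 9 libraries ended the call (adjusted p of at most 0.115). Dropping the low-count filter (0.0554) and adding the leukocyte covariate (−0.57 ± 0.22, adjusted p = 0.212) ended it too. With the mean level of the mural genes as a covariate, chosen after seeing the data, the call was kept (−1.16 ± 0.16, edgeR, adjusted p = 0.00389). The share of all genes called in that fit was not counted.

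The other copy, CLDN5 (ENSDARG00000014059), had means of 156 ± 33.8 and 103 ± 46.2 CPM without passing (−0.60 ± 0.24, adjusted p = 0.207). Its Fsh libraries stood at 117, 84.0, 74.7, 70.0, 191 and 79.8 CPM against 128 to 202 CPM in controls. All but Fsh library 5 lay below every control. Without that library, where 758 genes were called against 315 in the main fit, the log2 fold change was −0.88 (edgeR, adjusted p = 0.0208). With the leukocyte covariate it was −0.08 (adjusted p = 0.787), and with the mural covariate it was −0.69 and passed (edgeR, adjusted p = 0.0162). Claudin 5 is not restricted to endothelium, and how reads were shared between the copies is not stated. The most abundant others by the naming rule were klf2a, a flow-responsive transcription factor, at 63.9 ± 11.8 and 66.8 ± 12.9 CPM (0.06 ± 0.15, adjusted p = 0.865) and she, an adaptor protein gene of endothelium in zebrafish, at 45.5 ± 15.6 and 67.8 ± 27.0 CPM (0.57 ± 0.26, adjusted p = 0.271).

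**Figure D3:**
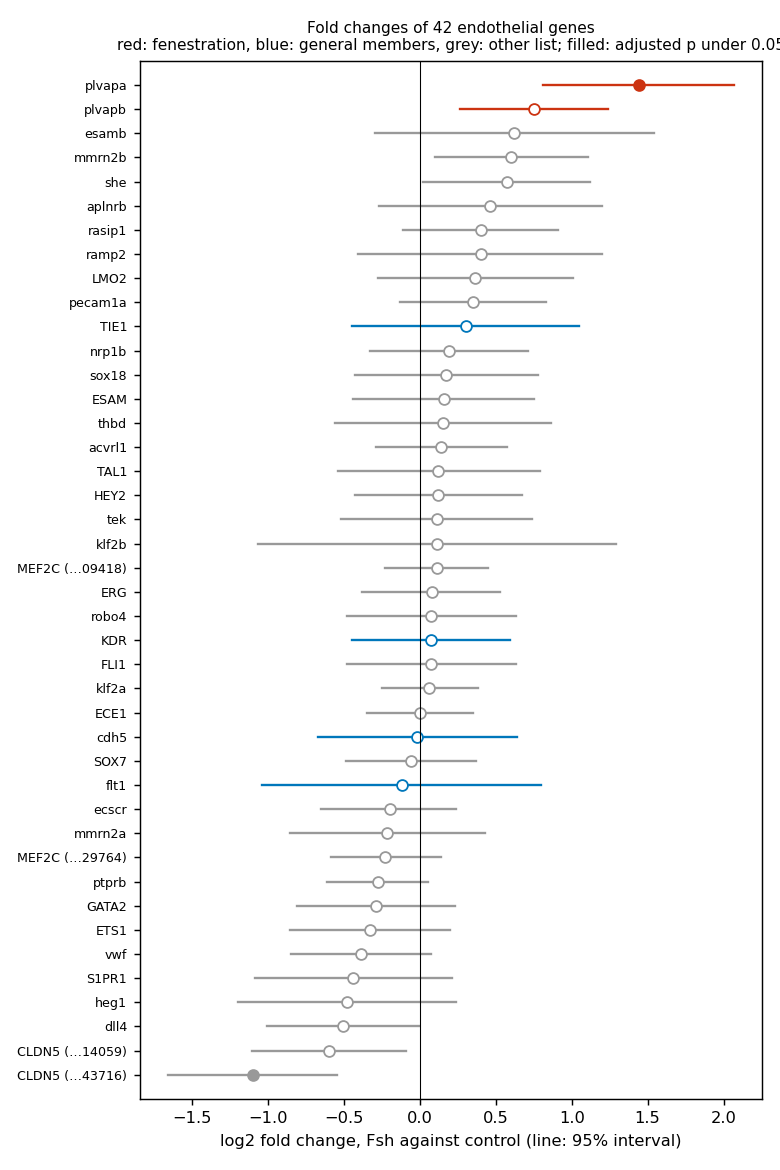
Log2 fold change (Fsh against control) with its 95% interval for the 42 tested endothelial genes, with plvapa and plvapb in red, the 4 general members in blue and the wider list in grey, and filled points for an adjusted p under 0.05. The filled points are plvapa at 1.44 and CLDN5 (ENSDARG00000043716) at −1.10, and the general members lie between −0.12 and 0.30.

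None of 15 tested ligand genes of vessels (Vegf, angiopoietin, apelin and related factors) passed in edgeR. Of these, 2 had an unadjusted p under 0.05 (17.4% of all genes did), DESeq2 called 1 and limma-voom 0. The list's median log2 fold change was 0.20. VEGFD and VEGFC, which encode ligands of Vegf receptors, had the smallest p. VEGFD averaged 4.61 ± 1.51 and 2.12 ± 0.832 CPM (−1.12 ± 0.31, adjusted p = 0.0888), with all 6 Fsh libraries below the control mean. It was the gene DESeq2 called (adjusted p = 0.0227). In edgeR the threshold was passed when control library 6 or Fsh library 5 was left out (adjusted p = 0.0224 and 0.044). Those repeats called 700 and 758 genes, against 315 in the main fit. VEGFD also passed with the mean level of the mural genes as a covariate, an alternative chosen after seeing the data (−1.15, edgeR, adjusted p = 0.0203).

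VEGFC stood at 12.0, 8.05, 11.8, 9.15, 9.92 and 9.69 CPM in controls and at 6.29, 7.71, 6.95, 4.39, 9.08 and 6.64 CPM with Fsh. Again every Fsh library was below the control mean (−0.55 ± 0.17, adjusted p = 0.12). VEGFA (ENSDARG00000034700), a ligand of Kdr and Flt1, averaged 31.6 ± 8.40 and 36.0 ± 4.17 CPM (0.19 ± 0.16, edgeR, adjusted p = 0.58). The symbols vegfaa and vegfab had no entry in the table of symbols, so only this ID stands for vegfa. The guidance and growth factor genes sema3aa (0.33 ± 0.17), SLIT2 (−0.29 ± 0.31) and tgfb1a (0.40 ± 0.21) did not pass.

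Of 9 lymphatic and venous genes none passed in edgeR, 4 had an unadjusted p under 0.05 (17.4% of all genes did), and DESeq2 and limma-voom called 0. The median log2 fold change was 0.12. NR2F2, a transcription factor of venous identity that interstitial cells also express, averaged 66.9 ± 9.05 and 52.2 ± 6.22 CPM (−0.35 ± 0.11, adjusted p = 0.124). Leaving out control library 6 brought it past the threshold (edgeR, adjusted p = 0.049), in a repeat that called 700 genes against 315 in the main fit. The scavenger receptor gene stab2 lay between 13.0 and 28.8 CPM in 5 Fsh libraries and reached 138 CPM in Fsh library 5, against 10.8 to 24.5 CPM in controls. Its log2 fold change was 1.19 ± 0.52 (adjusted p = 0.256) and 0.25 without that library. Its relative stab1 averaged 70.2 ± 24.9 and 93.9 ± 29.8 CPM (0.42 ± 0.24, adjusted p = 0.394). PROX1, the lymphatic transcription factor (0.36 ± 0.16), and NRP2 (ENSDARG00000038446), a co-receptor (0.32 ± 0.15), did not pass. The lymphatic marker lyve1b had 55 counts over all 12 libraries and was not tested.

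None of 12 tested mural genes, which mark the pericytes and smooth muscle around vessels, passed in edgeR, 3 had an unadjusted p under 0.05 (17.4% of all genes did), and DESeq2 and limma-voom called 0. Their median log2 fold change was 0.15, and −0.19 without Fsh library 5. The pericyte genes rgs5b and RGS5 (ENSDARG00000002644) lay on opposite sides, at −1.09 ± 0.42 and 0.83 ± 0.36 (adjusted p = 0.199 and 0.25). RGS5 is a low gene, averaging 1.16 CPM in controls and 2.06 CPM with Fsh. NOTCH3, the Notch receptor of mural cells, averaged 82.5 ± 6.86 and 98.0 ± 16.5 CPM (0.25 ± 0.11, adjusted p = 0.265). The contractile genes TAGLN (ENSDARG00000033466) and MYH11 (ENSDARG00000009782) stood at −0.13 ± 0.21 and −0.06 ± 0.19.

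The general endothelial genes varied more between libraries of one group than between the group means. On the mean log2 scale, with the control mean at 0, KDR, flt1, cdh5 and TIE1 ran from −0.59 in control library 6 to 0.74 in control library 2, and from −0.57 in Fsh library 6 to 1.18 in Fsh library 5. Mural genes followed, at −0.57 and 0.48 in the same controls and −0.49 and 0.99 in the same Fsh libraries. Each group was then centred on its own mean. Across the 12 libraries, 16 of the 36 other endothelial genes and 7 of 12 mural genes had a Pearson r over 0.8 with the general members. So did 5% of all tested genes. Over the 36 genes the median r was 0.77, with a range from −0.74 for tek to 0.97 for ramp2, and esamb was at −0.46. Each general member had an r between 0.65 and 0.91 with the mean of the other 3. The r was 0.72 for plvapb and 0.43 for plvapa. These values are descriptions over libraries that share depth and tissue makeup.

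The 8 genes most like the general members by that measure were BHLHE40, CPD, CLCN7, PRDM1, cfbl, ITGA5, RBMS1 and ramp2, with r between 0.97 and 0.98 over 12 libraries. Of these, ramp2, a receptor activity-modifying protein gene, stood in the endothelial list. Its controls lay between 11.0 and 35.5 CPM and 5 Fsh libraries between 14.2 and 22.4 CPM, with 58.3 CPM in Fsh library 5. None of the 8 passed the test between groups, with log2 fold changes from −0.74 for cfbl to 0.40 for ramp2. Without Fsh library 5, where 758 genes were called against 315 in the main fit, cfbl (−1.56, edgeR, adjusted p = 0.0457) and BHLHE40 (−0.84, adjusted p = 0.0459) passed. Both also passed with the mural covariate (edgeR, adjusted p = 0.00305 and 0.00832), where the share of all genes called was not counted. They were picked for variation across libraries that mural genes share, and that covariate removes it. Their SE fell from 0.54 to 0.15 for cfbl and from 0.31 to 0.09 for BHLHE40.

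**Figure D4:**
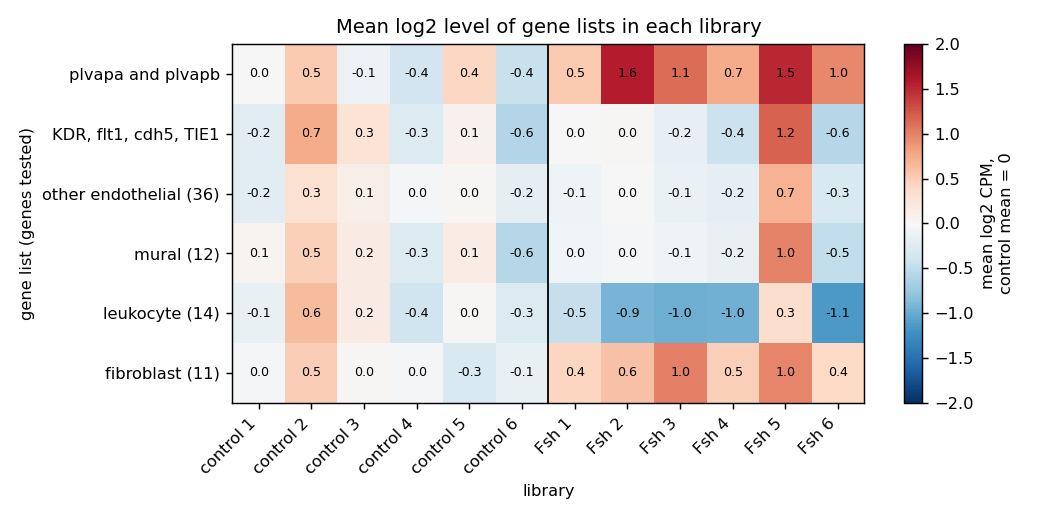
Mean log2 CPM of 6 gene lists in each library, shown as the difference from the control mean (colour scale and printed values, log2 units). Fsh library 5 is high in the rows of general endothelial, other endothelial and mural genes (1.18, 0.69 and 0.99). The row of plvapa and plvapb is between 0.53 and 1.57 in all 6 Fsh libraries, with 1.51 in library 5. Control library 2 also stands at 0.53 in that row.

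Marker levels of other cells also differed between libraries. The 14 tested leukocyte genes summed to between 1270 and 2030 CPM in controls and between 494 and 1550 CPM with Fsh, with Fsh library 5 the highest of its group. All 14 had a log2 fold change below 0, the median was −0.62, and 1 of 14 was called lower, against 0.766% of all genes. Over all tested genes 50.3% were above 0. None of them was at 0 in any library, and the pan-leukocyte gene ptprc ran from 14.2 to 98.0 CPM. The group difference in that sum did not pass (two-sided exact permutation test, p = 0.0368 and 0.0736 when adjusted over 4 measures). Across libraries, 6 of 14 leukocyte genes had an r over 0.8 with the general endothelial genes. In the leukocyte covariate fit TIE1 passed (0.98 ± 0.17, edgeR, adjusted p = 0.0232), while cdh5 (0.61), flt1 (0.83) and KDR (0.60) did not. In that fit she (1.14), ramp2 (1.24), stab2 (1.70), tgfb1a (0.80), NOTCH3 (0.47) and CPD (0.50) passed as well (adjusted p from 0.0192 to 0.0465). The share of all genes called in that fit was not counted. The covariate was below the control mean in every Fsh library except 5, so the fit cannot separate leukocyte level from Fsh. The part of leukocytes in the endothelial levels was not tested.

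Fibroblast genes summed to between 2080 and 4210 CPM in controls and between 3570 and 5960 CPM with Fsh, and 4 of 11 rose, against 0.865% of all genes called higher. Their part in the plvapa result was not tested. Red blood cell genes, of which 5 of 10 matched IDs were tested, summed to 64.5 ± 12.7 CPM in controls and 92.3 ± 14.4 CPM with Fsh, higher in all 6 Fsh libraries than the control mean (two-sided exact permutation test, p = 0.00866 and 0.0346 when adjusted). That call was lost in 10 of 12 repeats with 1 library left out (adjusted p up to 0.0693). In edgeR none of the 5 passed singly, while limma-voom called 0 and DESeq2 called 1, where it called 5.49% of all genes. The carbonic anhydrase gene cahz, at 45.2 and 73.4 CPM, made up most of that sum, while the haemoglobin gene hbaa2 averaged 8.87 and 9.96 CPM. Their part was not tested. The summed mural genes averaged 476 ± 76.8 and 481 ± 156 CPM (two-sided exact permutation test, p = 0.963, also when adjusted), and with the mural covariate plvapa had a log2 fold change of 1.47 ± 0.27 (adjusted p = 0.0118).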

How the data were processed

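The submitters' processing notes name CASAVA 1.8, STAR 2.3, HTSeq and the build Zv9. Not given in the sources used here are the release of the annotation, whether strand was used and how multi-mapping reads were treated. Deposited values are raw counts per Ensembl gene ID, not normalized by the authors. Reads of overlapping, antisense or near-identical genes may therefore be shared. Symbols came from a table that named 21939 of 33737 IDs; coordinates and transcript lengths of that build were not used, so levels are not compared between genes.

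Counts were tested in R 4.3.3 with edgeR 4.0.16 (glmQLFit and glmQLFTest, TMM, filterByExpr by group, no covariates, Benjamini-Hochberg over 19317 genes). TMM factors ran from 0.891 to 1.05. A standard error is the log2 fold change divided by the square root of F. Alternatives used DESeq2 1.42.0, limma-voom (limma 3.58.1), other scalings and filters, a robust fit, covariates, the replicate number and omission of each library. Summed marker levels were compared with exact permutation tests (924 arrangements, scipy 1.17.1). The scripts were tested on simulated counts.

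Members and lists were chosen with earlier results of these data known. Genes were named by rule: all members, up to 6 called genes per list (otherwise the 3 with the smallest p), the 3 most abundant, and the 8 most correlated with the general members; other genes were named after their values were seen. Libraries of the same group differed beyond sampling noise in every pair (chi-square per degree of freedom of at least 5.4), so each counted as 1 replicate. The submitters call them biological replicates. A count of 0 allows up to 3 counts, or 0.261 to 0.639 CPM by library, which covers counting error only.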

Additional observations from a re-analysis of the deposited data

Results flagged for a closer look

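In Fsh library 5, cdh5 stood at 99.3 CPM, TIE1 at 54.9 CPM, FLI1 at 59.6 CPM and the summed mural genes at 790.2 CPM, each far from the other 5 Fsh libraries. In control library 6 the log2 ratio of plvapb to the general endothelial genes was 0.56, far from the other 5 controls. These are 5 values from 26 groups of 6 libraries examined, where chance sets apart a value in about 1 of 20 groups, and the 4 values of Fsh library 5 are not independent of each other.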

How the results depend on the processing

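Over all genes 315 were called, 1061 in DESeq2 and 95 to 758 with 1 library left out, lowest without Fsh library 2 and highest without Fsh library 5. Of the members 1 was called, 2 in DESeq2, with the replicate block and with the leukocyte or mural covariate, and 0 to 1 with a library left out. The second was plvapb, at 0.75 in DESeq2, 0.72 with the block (adjusted p = 0.0473) and 0.72 with the mural covariate. With the leukocyte covariate the 2 called were plvapb (1.13) and TIE1 (0.98, edgeR, adjusted p = 0.0232), and the call of plvapa was lost (1.64). With a library left out plvapa ran from 1.28 to 1.62. Libraries of equal number had correlations of deviations from 0.02 to 0.26, and 3 of 6 controls correlated best with their own number. These values do not settle whether the number marks a pairing, and the main fit did not use it. With the block 381 genes were called, and CLDN5 (ENSDARG00000043716) kept its call (−1.16, edgeR, adjusted p = 0.0332). VEGFD passed with the block (−1.12, adjusted p = 0.0364), as it did with the mural covariate (−1.15, adjusted p = 0.0203). Relative to the general genes, plvapa passed at 1.47 with the endothelial covariate, 1.78 scaled by cdh5, 1.59 by summed CPM, 1.51 with the block and 0.87 with the leukocyte covariate (added after seeing the data), and ran from 1.43 to 1.73 with a library left out; plvapb passed at 0.74 with the endothelial covariate. Adding FLI1 to the scaling, also after seeing the data, left plvapa at 1.55 (adjusted p = 0.0544). For the fits with a covariate, and for the alternative settings relative to the general genes, the share of all genes called was not counted.

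Signs turned for genes near 0: cdh5 with library size only (0.00), and FLI1 in limma-voom (−0.01), with the block (−0.01) and with the mural covariate (−0.02). With the leukocyte covariate they turned for flt1 (0.83), cdh5 (0.61), ITGA5 (0.64), MYH11 (0.36), PRDM1 (0.33), cfbl (0.31), RBMS1 (0.29), TAGLN (0.28), BHLHE40 (0.27) and klf2a (−0.03). With a library left out, log2 fold changes ran from −0.12 to 0.24 for KDR, −0.48 to 0.23 for flt1, −0.41 to 0.13 for cdh5, −0.16 to 0.46 for TIE1, −0.25 to 0.17 for FLI1, −0.43 to 0.10 for ITGA5, −0.28 to 0.02 for MYH11, −0.10 to 0.13 for CLCN7, −0.08 to 0.69 for ramp2, −0.03 to 0.15 for klf2a and −0.12 to 0.17 for CPD. The group difference in summed CPM ran from −57 to 32.2 for mural, 23.9 to 32.5 for red blood cell (passing without 2 of 12 libraries) and −663 to −451 for leukocyte genes (passing without Fsh library 5). The cause of these shifts was not tested. Low counts limit the precision for plvapa, flt1, VEGFD, esamb and RGS5.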
